A study of Mus musculus with 16 samples.

Results

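The replication-dependent histone genes were followed in mandibular molar tooth germs of Rsk2-/Y mouse embryos and WT embryos. Their members were taken as every row of the deposited array table whose platform symbol field names a gene of the H1f, H2ac, H2bc, H3c or H4c families, with or without further symbols in the field. Of 35556 rows, 56 met this rule, and 2 of these repeated the values of another row exactly, which left 54 distinct rows naming 66 symbols. These were 8 H1 rows, 6 H2A rows, 15 H2B rows, 13 H3 rows, 11 H4 rows and 1 row that names both an H2B and an H1 gene. A row of the table is a probe set, the group of array probes that reports 1 signal. Only 30 of the 54 rows carried 1 symbol, 2 carried 2 symbols, and 22 carried 11 to 20 symbols because the coding sequences of these genes are nearly identical. The values of such shared rows cannot be assigned to 1 gene, and they are not independent of each other. Of the 54 rows, 52 exceeded a log2 signal of 5 in at least 1 of the 16 samples and were tested, and the rows of H3c7 (3.62 to 4.11) and H2ac8 (4.46 to 4.62) did not.

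Each sample was a pool of 4 mandibular molar germs from more than 1 embryo, dissected at E14.5 from the C57Bl6 background, hybridized to 1 Affymetrix Mouse Gene ST array. There were 8 pools of Rsk2-/Y germs, from males hemizygous for a germ-line Rsk2 knockout, and 8 pools of WT germs. Sample names carried 1 of 2 prefixes, AZN or ABH, whose meaning is not given, and each prefix (called a series here) held 4 Rsk2-/Y and 4 WT pools. Because each pool mixes epithelium, mesenchyme and whatever tissue was dissected with them, fewer cells in S phase and less histone RNA per cell cannot be told apart. All values below are signals on the log2 scale as deposited, and a difference of 1 is a doubling. Median signals of the arrays lay between 6.74 and 6.94, and the precision of every comparison is limited by the number of arrays.

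Histones package DNA into nucleosomes, with H2A, H2B, H3 and H4 in the core and the linker histone H1 outside it. The replication-dependent genes lie in clusters, are transcribed mainly in S phase and make messenger RNAs that end in a stem-loop instead of a poly(A) tail. The stem-loop binding protein SLBP holds these RNAs until DNA synthesis ends, when they are degraded. Many near-identical gene copies feed 1 pool of protein, and the copies can be used to different extents in different cells. RSK2 is known as a kinase that can phosphorylate histone H3, but an array measures RNA and not that modification. In the RefSeq table, 53 of the 66 symbols lie on chromosome 13, 10 on chromosome 3, 2 on chromosome 6 and 1 on chromosome 15.

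The histone signals covered most of the range of the array. Every shared H3 row lay between 12.73 and 13.52 in all 16 pools, every shared H4 row between 13.05 and 13.45, and every shared H2B row between 12.35 and 13.11, beside a 99th percentile of 12.4 over all deposited values. Tested rows of 1 symbol reached from H4c4 (12.96 to 13.24), named here as the highest of them, down to H1f8 (5.09 to 5.41). Signals of different probe sets depend on their probes and are not compared as levels.

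The first comparison asks whether loss of Rsk2 altered histone gene RNA. No member passed the test between Rsk2-/Y and WT pools. At an adjusted p below 0.1 and a fold difference beyond 1.2, limma with Benjamini-Hochberg adjustment over 19979 rows called 0 of 52 members higher and 0 lower in Rsk2-/Y, where the background over all rows was 0% in each direction. At an unadjusted p below 0.05, which 1.16% of all rows passed as higher and 2.79% as lower, again 0 members passed, and the methods' t-test gave 0 members as well. This fit held no term for series, so any difference between the series entered its standard errors. The smallest adjusted p among the members was 0.99976. Of the 52 members 14 had a higher mean and 38 a lower mean in Rsk2-/Y, with a median difference of -0.03. Over all 19979 rows 8217 were higher and 11762 lower, with a median of -0.01. In the mean, 2 members (3.85%) differed by more than 1.2-fold, against 1.70% of all rows.

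The target itself gave no check of the labels. Rps6ka3, the gene of RSK2, had signals of 9.74 to 10.4 in Rsk2-/Y pools and 9.61 to 10.2 in WT pools. Its probes are summarised over the whole gene and could report a transcript with a deletion as well, which was not tested.

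Linker histones were the first class. H1f1, which encodes the H1.1 subtype, had the highest difference of the members, 0.27 ± 0.32 (SE), with a mean of 12.30 ± 0.68 in Rsk2-/Y pools and 12.03 ± 0.77 in WT pools (SD, n = 8 each). The pools of both genotypes ran from about the same low to about the same high value, 11.02 to 12.79 in Rsk2-/Y and 11.06 to 12.88 in WT, so the spread within a genotype was larger than the difference. H1f10, a linker histone whose gene is not replication-dependent, had the lowest difference of the class, -0.07 ± 0.07, with 10.50 ± 0.15 in Rsk2-/Y and 10.57 ± 0.13 in WT pools. The germ line linker histones differed by -0.01 (H1f6, of testis), 0.00 (H1f7, of spermatids) and -0.06 (H1f8, of oocytes), and all 3 stayed below 7 in every pool.

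Among the core histones the H4 rows held both ends. The row shared by H4c17 and H4c11 had the lowest difference of all members, -0.26 ± 0.13 (unadjusted p = 0.065, adjusted p = 0.99976, limma). In AZN its values were 6.49, 6.42, 5.87 and 5.97 in Rsk2-/Y pools, against 6.54, 6.43, 6.44 and 6.40 in WT pools. In ABH they were 6.55, 6.77, 6.41 and 6.65 in Rsk2-/Y pools, against 6.83, 6.55, 6.96 and 7.11 in WT pools. The genotypes overlapped in both series, although 7 of 8 Rsk2-/Y pools lay below the WT mean, and the difference was -0.26 within each series. H4c8 had the highest difference of the class, 0.15 ± 0.13, with 6.85 ± 0.23 in Rsk2-/Y and 6.70 ± 0.34 in WT pools. The 4 shared H4 rows differed by 0.02 to 0.03.

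In the other core classes H2bc8 had the lowest difference of the H2B rows, -0.15 ± 0.09, with 7 of 8 Rsk2-/Y pools below the WT mean, and H2bc14 the highest, 0.03 ± 0.06. H2ac4 had the lowest difference of the H2A rows, -0.10 ± 0.18, and a shared H2A row with 19 symbols the highest, -0.00. H3c15 had the lowest of the H3 rows, -0.25 ± 0.33, with 4.81 to 6.90 in Rsk2-/Y pools and 5.25 to 6.94 in WT pools. The 10 shared H3 rows differed by -0.05 to -0.04, all in 1 direction but with signals that the rows share, and within the spread of the pools.

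The genotype differences were next taken within each series. In AZN the member median was -0.00, in ABH it was -0.04, against -0.00 and -0.03 over all rows of the same series. Within ABH, 3 of 52 members were lower and 0 higher at an unadjusted p below 0.05 (limma), against 1709 and 875 of 19979 rows. Within AZN 0 members passed that level, against 303 rows lower and 274 higher. The test of the difference between series, the interaction of genotype and series, called 0 of 52 members in either direction, with a background of 0%. At an unadjusted p below 0.05, 1 member (1.92%) had a positive interaction, against 3.76% of all rows, and that member was H2bc4, named here after its values were seen. H2bc4, an H2B gene, had 9.88, 9.83, 10.05 and 9.68 in Rsk2-/Y AZN pools against 9.73, 10.02, 9.72 and 9.33 in WT AZN pools. In ABH it had 9.79, 9.63, 9.84 and 9.60 in Rsk2-/Y pools against 10.08, 10.19, 10.24 and 9.90 in WT pools. The genotypes thus did not overlap in ABH and overlapped in AZN, and how many of all rows do so was not counted. Within ABH the difference of H2bc4 was -0.39 ± 0.09 (SE, adjusted p = 0.17, limma) and was not called. The interaction was 0.54 ± 0.17 (SE, unadjusted p = 0.0057, adjusted p = 0.75, limma).

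**Figure D1:**
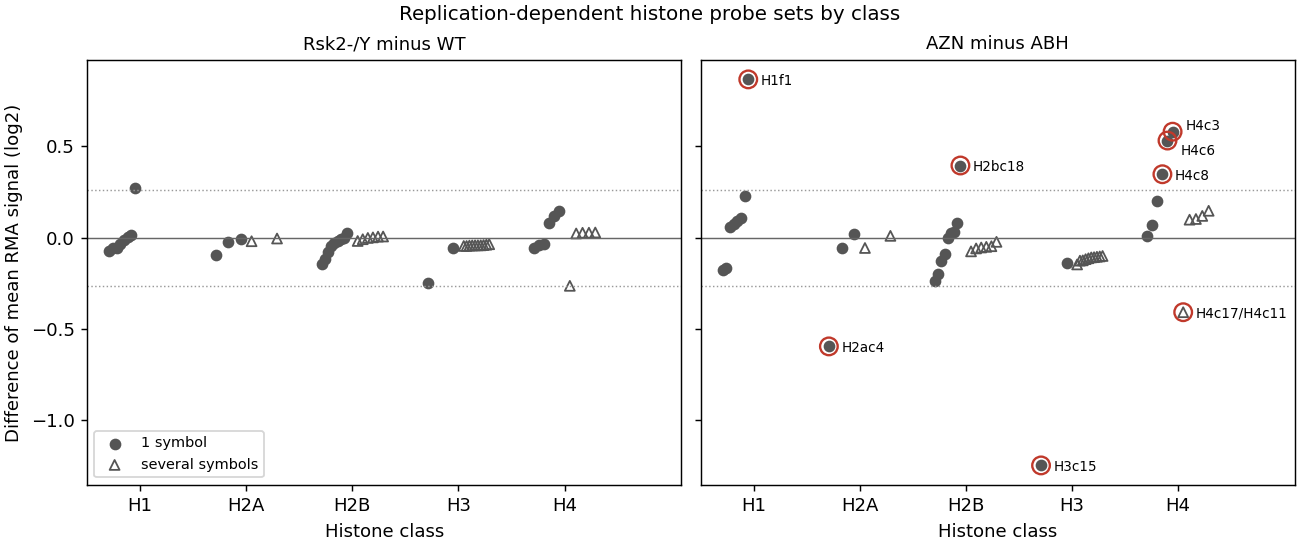
Difference of the mean log2 signal for the 51 tested members of a single class, Rsk2-/Y minus WT on the left and AZN minus ABH on the right, by histone class. Filled circles are rows with 1 symbol, open triangles rows with several; dotted lines mark a fold of 1.2 and red rings the 8 called members, all of them in the comparison of series.

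The second comparison was between the series, which were crossed with genotype. In all, 8 members were called, 5 higher and 3 lower in AZN than in ABH. They were H1f1, H4c3, H4c6, H4c8 and H2bc18, which were higher, and H3c15, H2ac4 and the H4c17/H4c11 row, which were lower. The shares, 9.62% higher and 5.77% lower of the 52 members, stand beside 6.23% and 10.3% of all rows, so the members as a set were not called more often than other genes. At an unadjusted p below 0.05, 11 members (21.2%) were higher and 18 (34.6%) lower, against 22.9% and 23.3% of all rows, and 10 of the 18 are the shared H3 rows that read the same transcripts. The median difference of the members was -0.05, beside 0.02 over all rows. The name series cannot be told apart from whatever was done differently with its pools, which was not stated.

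H1f1 and H4 genes made up 4 of the 5 members called higher in AZN. Of the 11 H4 rows 10 had a higher mean in AZN, and 3 passed the test. H4c3, a chromosome 13 H4 gene, had 10.42, 10.85, 10.35 and 10.59 in Rsk2-/Y AZN pools and 10.27, 10.77, 10.49 and 10.10 in WT AZN pools. In ABH it had 10.43, 9.44, 9.92 and 9.84 in Rsk2-/Y pools (14A, 15A, 16A and 26A) and 9.55, 9.80, 10.53 and 9.68 in WT pools (11A, 12A, 13A and 25A). Its difference was 0.58 ± 0.15 (SE, adjusted p = 0.006, limma), 1.5-fold, and the ABH pools 13A and 14A lay within the AZN range.

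H4c6 had 11.64, 11.93, 11.56 and 11.82 in Rsk2-/Y AZN pools and 11.46, 12.01, 11.79 and 11.54 in WT AZN pools. Its ABH values were 11.49, 11.19, 11.30 and 11.18 in Rsk2-/Y pools and 10.85, 10.92, 11.74 and 10.84 in WT pools. The difference was 0.53 ± 0.12 (adjusted p = 0.0023). H4c8 behaved alike at a lower signal, 6.74 to 7.18 in AZN and 6.21 to 6.98 in ABH, a difference of 0.35 ± 0.10 (adjusted p = 0.015). The shared H4 rows, which hold the signal of most H4 genes together, were 0.10 to 0.15 higher in AZN with adjusted p between 0.02 and 0.072, below the fold required, and H4c9, named after its values were seen, differed by 0.01 ± 0.05.

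H1f1 separated the ABH pools most sharply. In AZN it had 12.58, 12.59, 12.75 and 12.70 in Rsk2-/Y pools and 12.36, 12.88, 12.76 and 12.17 in WT pools. In ABH it had 12.79, 11.02, 12.57 and 11.43 in Rsk2-/Y pools 14A, 15A, 16A and 26A, and 11.06, 11.10, 12.63 and 11.28 in WT pools 11A, 12A, 13A and 25A. Both genotypes therefore held ABH pools near 11 and ABH pools near 12.6, with no value between 11.43 and 12.17 in any pool. The difference of the series, 0.87 ± 0.25 (adjusted p = 0.013), averages over these ABH pools, and the whole range over the 16 pools was 3.64-fold. The pooled SD within genotype and series was 0.59 for H1f1, the largest of all members, followed by 0.35 for H4c3 and 0.33 for H3c15.

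**Figure D2:**
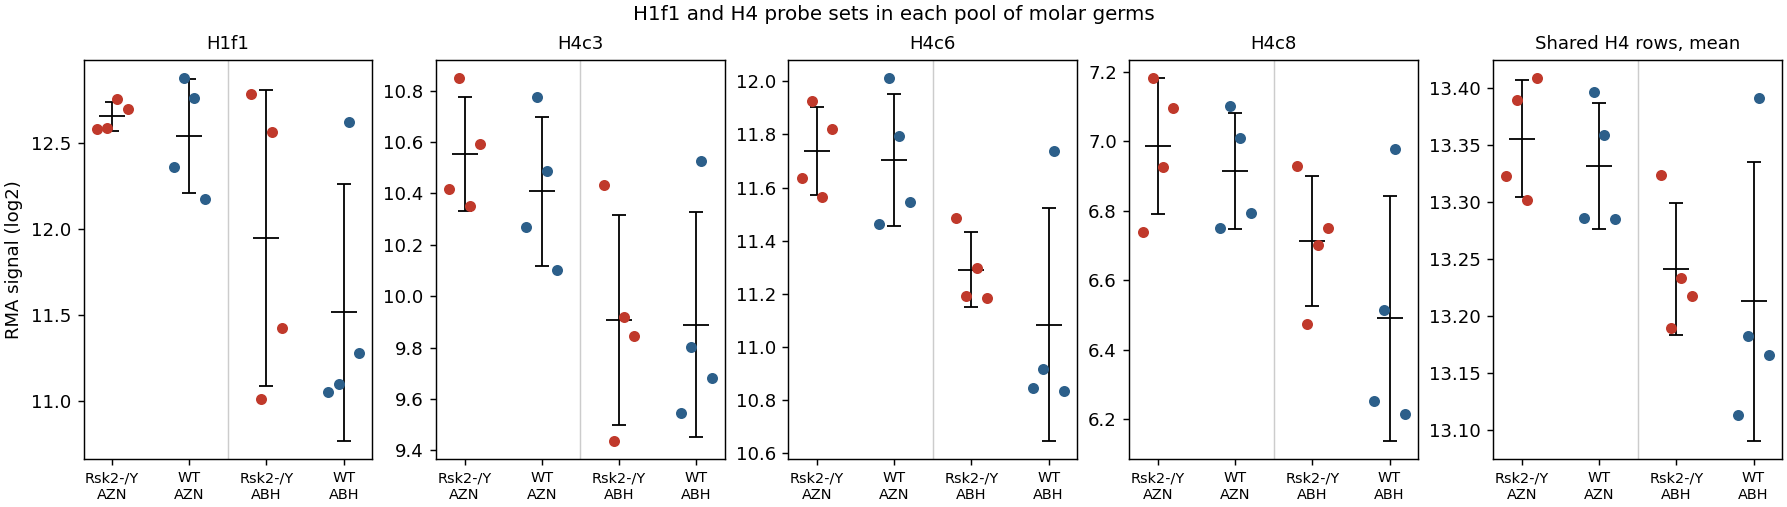
Log2 signal of H1f1, H4c3, H4c6 and H4c8 and the mean of the 4 shared H4 rows in each of 16 pools, grouped by series and genotype; points are pools and black bars the mean and SD of 4 pools. AZN pools of H1f1 sit between 12.17 and 12.88, and ABH pools fall near 11 or near 12.6 in both genotypes; each panel has its own axis, which does not start at 0.

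The promoters of these 4 genes are shown because their rows were all called higher in AZN. They were taken from RefSeq on GRCm38.p6 as the 250 bases before and 50 bases after the annotated start, and 61 of the 66 symbols had such a window. Capitals mark TATAAA (the TATA box), CCAAT, ATTTGCAT (the octamer bound by OCT1), AAACACA (the H1 box) and GGTCCG (the core bound by HINFP, the H4 gene activator), each searched on both strands. No 2 matches overlapped in the windows printed, and a match is a string of letters and not a shown binding site.
H1f1 (chr13:23763418-23763717, plus strand): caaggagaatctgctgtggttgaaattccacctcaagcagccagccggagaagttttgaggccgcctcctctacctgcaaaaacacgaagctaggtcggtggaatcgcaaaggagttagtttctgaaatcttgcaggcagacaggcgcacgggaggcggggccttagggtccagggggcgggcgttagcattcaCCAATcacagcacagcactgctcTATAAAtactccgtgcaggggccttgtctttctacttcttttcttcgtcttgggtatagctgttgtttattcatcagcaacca
H4c3 (chr13:23698409-23698708, minus strand): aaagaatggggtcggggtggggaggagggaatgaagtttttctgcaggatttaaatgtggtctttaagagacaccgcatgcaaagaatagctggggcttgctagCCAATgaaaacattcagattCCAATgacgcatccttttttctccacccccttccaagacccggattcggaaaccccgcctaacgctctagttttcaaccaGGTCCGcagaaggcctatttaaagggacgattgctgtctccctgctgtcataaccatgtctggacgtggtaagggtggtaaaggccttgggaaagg
H4c6 (chr13:23551619-23551918, minus strand): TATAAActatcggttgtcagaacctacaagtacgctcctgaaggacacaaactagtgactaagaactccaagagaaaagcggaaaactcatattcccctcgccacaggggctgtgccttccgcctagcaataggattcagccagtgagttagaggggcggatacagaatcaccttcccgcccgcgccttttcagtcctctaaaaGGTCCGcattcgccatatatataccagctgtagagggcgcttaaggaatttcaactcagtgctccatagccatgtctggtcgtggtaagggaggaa
H4c8 (chr13:23530794-23531093, plus strand): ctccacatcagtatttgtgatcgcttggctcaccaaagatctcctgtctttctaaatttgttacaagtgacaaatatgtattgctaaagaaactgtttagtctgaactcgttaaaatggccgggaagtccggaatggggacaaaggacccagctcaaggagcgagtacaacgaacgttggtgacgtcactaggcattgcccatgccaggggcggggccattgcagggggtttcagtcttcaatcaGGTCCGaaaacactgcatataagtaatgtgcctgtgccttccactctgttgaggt

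GGTCCG stood in 10 of the 11 H4 windows, among them those of the H4 genes that were not called, and in 8.25% of all 32851 windows of the table. It was at position -46 from the start in H4c3 and H4c6 and at -5 in H4c8. The H1f1 window held CCAAT at -56 and TATAAA at -33 and no H1 box, which 5 of 9 H1 windows and 7.18% of all windows held. The 9 H1 windows include those of the germ line genes H1f6, H1f7 and H1f8 and of H1f10, which is not replication-dependent. The letters GGTCCG were thus shared by the H4 genes as a class and did not mark H4c3, H4c6 and H4c8 alone.

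Of the 8 called members, H2bc18 and H3c15 lie on chromosome 3. H2bc18 was higher in AZN, at 10.33, 10.61, 10.20 and 10.45 in Rsk2-/Y AZN pools and 10.32, 10.32, 10.30 and 10.25 in WT AZN pools. It had 9.996, 9.85, 9.80 and 9.93 in Rsk2-/Y ABH pools and 10.02, 10.06, 10.08 and 9.86 in WT ABH pools. All 8 AZN pools lay above all 8 ABH pools, and the difference was 0.40 ± 0.06 (adjusted p = 8.9e-05).

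H3c15 had the largest difference of the members, in the other direction. Its values were 5.49, 5.13, 4.81 and 5.69 in Rsk2-/Y AZN pools and 5.34, 5.25, 6.10 and 5.36 in WT AZN pools. Those in ABH were 6.25, 6.90, 6.23 and 6.67 in Rsk2-/Y pools and 6.80, 6.94, 6.56 and 6.80 in WT pools. All AZN pools lay below all ABH pools, by 1.25 ± 0.14 on average (a difference of -1.25, adjusted p = 6.7e-06, limma, 2.38-fold). How many of all rows separate the series fully, as H2bc18 and H3c15 did, was not counted. The AZN values were low, between the 20th percentile (4.79) and the median (6.84) of all deposited values, and the ABH values lay near that median. The promoters of both genes are printed for the contrast within 1 cluster, with capitals as above.
H2bc18 (chr3:96269450-96269749, plus strand): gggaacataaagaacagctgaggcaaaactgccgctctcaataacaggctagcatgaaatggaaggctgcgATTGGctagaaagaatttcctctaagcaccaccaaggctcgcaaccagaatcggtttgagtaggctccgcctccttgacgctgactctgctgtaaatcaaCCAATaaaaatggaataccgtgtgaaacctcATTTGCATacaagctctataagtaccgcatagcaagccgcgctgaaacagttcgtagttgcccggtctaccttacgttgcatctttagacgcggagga
H3c15 (chr3:96239078-96239377, minus strand): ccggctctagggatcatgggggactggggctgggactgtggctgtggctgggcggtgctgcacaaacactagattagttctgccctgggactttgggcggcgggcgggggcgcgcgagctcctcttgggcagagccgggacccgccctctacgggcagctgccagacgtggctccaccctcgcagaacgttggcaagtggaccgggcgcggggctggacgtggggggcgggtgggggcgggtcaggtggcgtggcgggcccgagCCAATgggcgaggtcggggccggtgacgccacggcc

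The H2bc18 window held the octamer at -48, as did 6 of 14 H2B windows and 6 of 17 H2A windows, but 0 of 9 H1, 0 of 10 H3 and 0 of 11 H4 windows; 1.74% of all windows held it. CCAAT stood in all 14 H2B, all 17 H2A and all 10 H3 windows, in 7 of 9 H1 windows and in 3 of 11 H4 windows, against 37.4% of all windows. The H3c15 window held CCAAT only after the annotated start, at 15.

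H2ac4, an H2A gene of chromosome 13, had 9.09, 8.66, 8.42 and 8.79 in Rsk2-/Y AZN pools and 9.06, 9.08, 8.48 and 8.78 in WT AZN pools. Its ABH values were 9.03, 9.49, 9.16 and 9.72 in Rsk2-/Y pools and 9.45, 9.37, 9.53 and 9.39 in WT pools. The 2 series overlapped only between 9.03 and 9.09, and the difference was -0.60 ± 0.11 (adjusted p = 0.00052). The row of H4c17 and H4c11 differed by -0.41 ± 0.09 (adjusted p = 0.0026), against the direction of every other H4 row. H2bc8 differed by -0.24 ± 0.07 (adjusted p = 0.011) and stayed within the fold of 1.2.

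**Figure D3:**
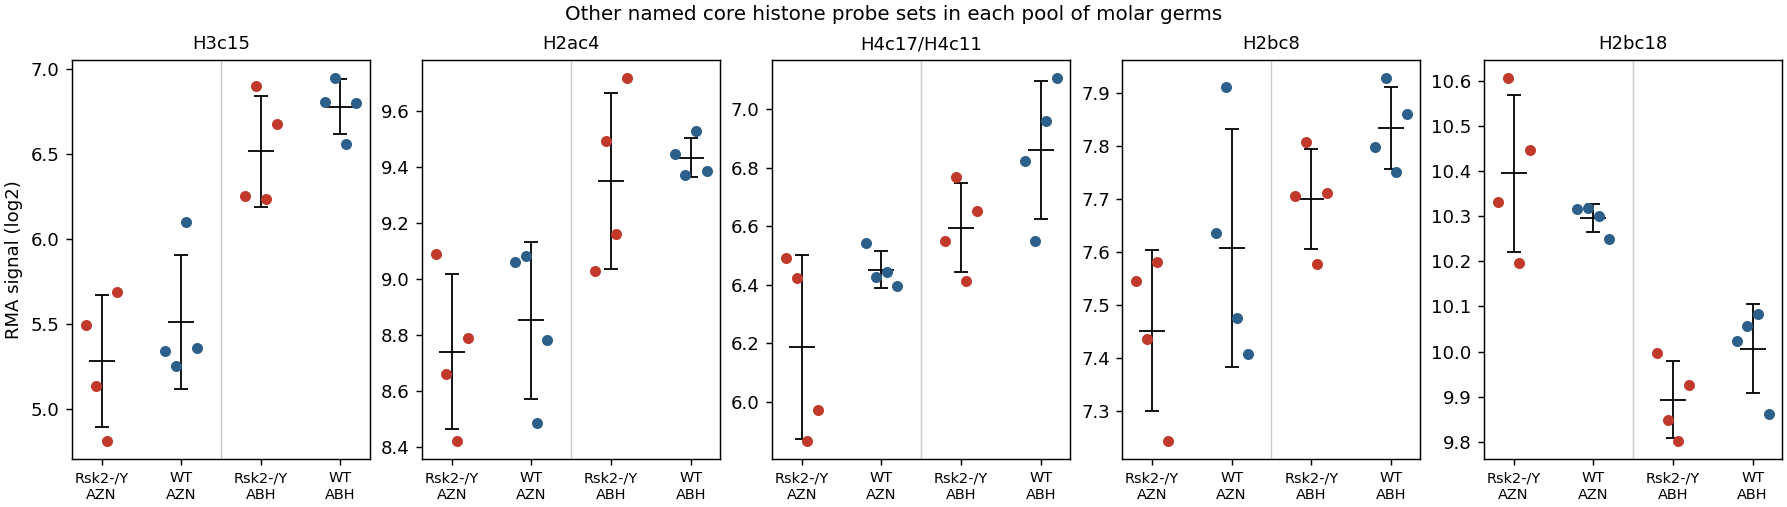
Log2 signal of H3c15, H2ac4, the H4c17/H4c11 row, H2bc8 and H2bc18 in each of 16 pools, grouped by series and genotype, with the mean and SD of 4 pools in black. H3c15 and H2bc18 separate the series fully, in opposite directions; each panel has its own axis, which does not start at 0.

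All 12 tested H3 rows had a lower mean in AZN, by 0.10 to 0.15 for the 10 shared rows (differences of -0.15 to -0.10, adjusted p between 0.007 and 0.046), and H3c15 alone passed the fold. The 10 shared rows read the same H3 transcripts, so this is close to 1 observation. The 6 shared H2B rows differed by -0.08 to -0.02 (smallest adjusted p = 0.13). H1f5, an H1 gene of S phase named after its values were seen, was 0.23 ± 0.06 higher in AZN (adjusted p = 0.0045) and H1f10 differed by -0.17 ± 0.06 (adjusted p = 0.02), both within the fold of 1.2. H2bc14, H2ac1, of the testis type, and the shared H2A row of 19 symbols had differences between -0.00 and 0.02, and the germ line H1 genes differed by 0.06 (H1f8), 0.09 (H1f6) and 0.10 (H1f7).

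Across pools of the same genotype and series, the classes varied to different extents together. With the 4 group means removed, the 6 H4 rows with 1 symbol had a median Pearson r of 0.62 over 15 pairs (0.43 to 0.91, 16 pools), and the median was 0.76 in the 8 AZN pools and 0.69 in the 8 ABH pools. The 9 H2B rows with 1 symbol had a median r of 0.14 over 36 pairs, the 3 H2A rows 0.32 over 3 pairs and the 4 S phase H1 rows 0.25 over 6 pairs. These values are descriptions without a test, since the rows of a class share sequence, array and pool. WT pool ABH_13A had the highest signal of the 8 ABH pools in H4c3, H4c6 and H4c8 and in the mean of the shared H4 rows, 13.39 against 13.11 to 13.32 in the other ABH pools.

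**Figure D4:**
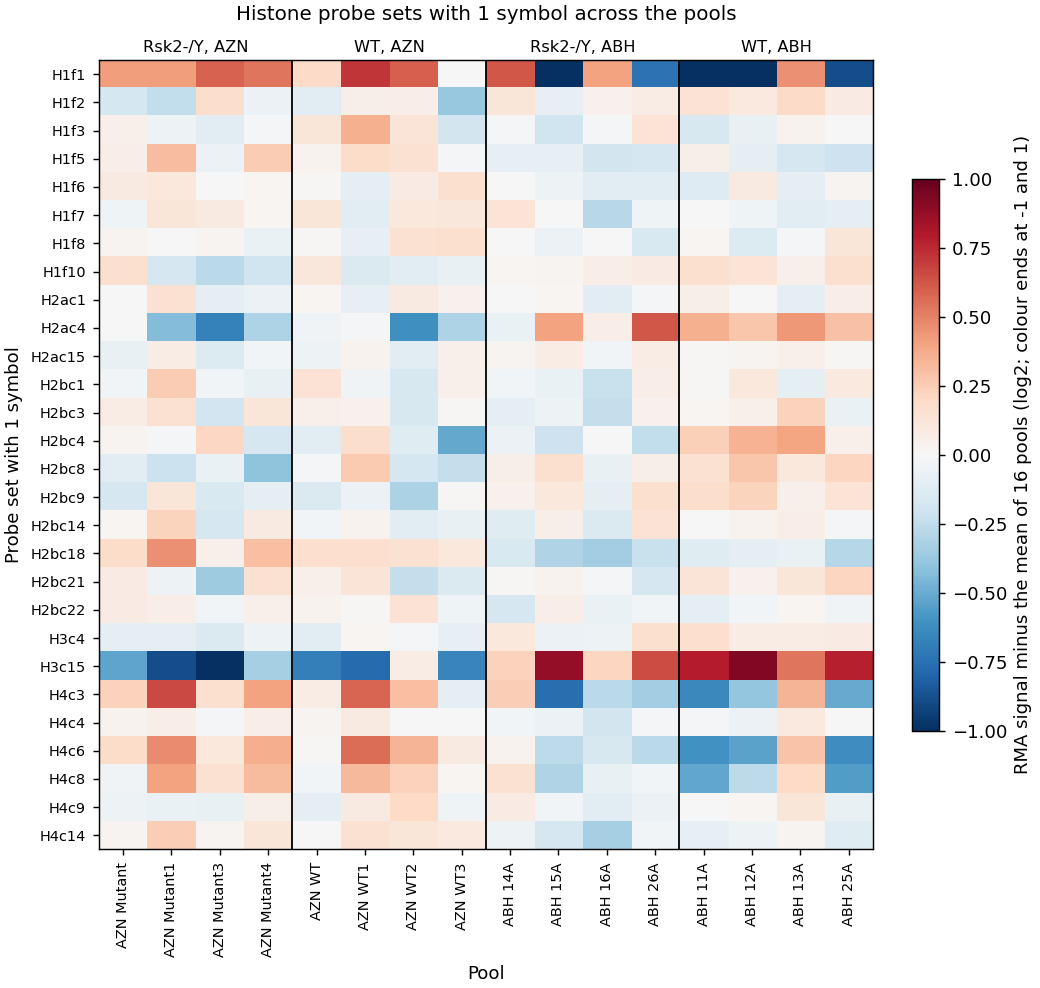
Deviation of the log2 signal from the mean of 16 pools for the 28 tested rows with 1 symbol, in 16 pools grouped by series and genotype; red is above and blue below the row mean, and colour ends at -1 and 1. H1f1 is far below its mean in 5 ABH pools of both genotypes, and H3c15 is above its mean in all 8 ABH pools.

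Of all rows outside the members, the 5 most like the mean of the 52 members, again with the group means removed, were the Xlr3b/Xlr3c/Xlr3a row (r = 0.87, rho = 0.82), 2 Rpl13 rows (r = 0.86, rho = 0.90; and r = 0.83, rho = 0.84), Cep55 (r = 0.85, rho = 0.81) and Nop58 (r = 0.83, rho = 0.77), over 16 pools. They were picked as the highest of all rows, and so no test belongs to them. Rpl13 encodes a ribosomal protein, Cep55 a protein of the last step of cell division and Nop58 a component of nucleolar ribonucleoproteins.

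Genes that work with the histone genes were described as lists. In the comparison of genotypes 0 genes of the 5 lists were called. The median difference was -0.05 for 35 S phase and DNA replication genes, -0.04 for 28 G2 and M phase genes, -0.01 for 21 genes of histone mRNA transcription and 3′ end processing, -0.01 for 8 replication-independent histone variants and -0.02 for 15 histone chaperones, beside -0.01 over all rows. The S phase genes with the largest differences were Cdc6, which loads the replicative helicase (-0.18 ± 0.09), and Ung, a uracil glycosylase (-0.14 ± 0.06). In the processing list they were Lsm10 (-0.17 ± 0.08) and Lsm11 (0.12 ± 0.06), both subunits of the U7 particle that cuts histone pre-mRNA, and among the variants H2az2 (-0.14 ± 0.05) and H2aj (-0.07 ± 0.05). The largest among the G2 and M phase genes were Kif2c (-0.12 ± 0.15) and Kif20a (-0.09 ± 0.10), and among the chaperones Rbbp7 (0.09 ± 0.07) and Daxx (-0.08 ± 0.06).

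In the comparison of series, 5 of the 35 S phase genes were called lower and 1 higher in AZN, and 15 of the 28 G2 and M phase genes lower and 1 higher. Over all 19979 rows, 10.3% were called lower and 6.23% higher. The medians of the S phase list and the G2 and M phase list were -0.12 and -0.27, against 0.02 over all rows. Chek1, the checkpoint kinase of S phase, differed by -0.63 ± 0.06, Tk1, which makes thymidine monophosphate, by -0.44 ± 0.06, Kif2c, a mitotic kinesin, by -0.51 ± 0.09 and Hmmr by -0.50 ± 0.08. The genes called higher were Gins2 (0.39 ± 0.04) and Cdk1 (0.40 ± 0.05), named after their values were seen. The mean signal of the G2 and M phase list was 9.48 to 9.89 in AZN pools and 9.89 to 10.09 in ABH pools. In AZN, 20 of the 22 called cell cycle genes thus lay lower, 15 of them from the G2 and M phase list. Among the called members, H1f1, H4c3, H4c6, H4c8 and H2bc18 lay higher there, and H3c15, H2ac4 and the H4c17/H4c11 row lower.

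For the next 3 lists, too, the shares of all 19979 rows were 6.23% called higher and 10.3% called lower in AZN. Of 21 transcription and processing genes 0 were called higher and 2 lower, with a median of -0.10. The 2 were Npat, the coactivator of histone gene transcription that cyclin E/CDK2 activates (-0.29 ± 0.04), and Upf1, a helicase needed for histone mRNA decay (-0.27 ± 0.05). Of 15 chaperones 2 were called higher and 3 lower, among them Rbbp4, a subunit of chromatin assembly factor 1 (0.46 ± 0.05), and Nasp, which carries H3 and H4 (-0.64 ± 0.07). Of 8 variants 1 was called, H2ax, the H2A variant phosphorylated at DNA breaks, which was 0.35 ± 0.06 higher. H4f16, an H4 gene outside the clusters and outside the rule, named after its values were seen, had 10.34 to 10.77 in AZN pools and 9.97 to 10.33 in ABH pools, a difference of 0.41 ± 0.07 (adjusted p = 0.00017).

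Markers of both dental tissues gave signal in every pool (list means of 9.77 to 10.70 for the epithelium and 9.98 to 10.62 for the mesenchyme). Some markers of dental and other tissues differed between series, where 6.23% of all 19979 rows were called higher and 10.3% lower in AZN. Of 10 skeletal muscle genes 4 were called higher and 0 lower in AZN, and the mean of the list was 7.89 to 10.17 in AZN pools and 7.39 to 9.69 in ABH pools, highest in Rsk2-/Y pools AZN_MolairesMutant3 and ABH_14A. Of 6 erythroid genes 3 were called higher (list mean 7.72 to 8.87 in AZN and 7.08 to 8.51 in ABH), and of 8 dental epithelial genes 1 was higher and 3 lower (9.77 to 10.57 in AZN and 10.15 to 10.70 in ABH). Of 4 osteoblast genes 2 were called higher and 0 lower (list mean 10.84 to 11.88 in AZN and 10.44 to 11.12 in ABH), and of 9 dental mesenchymal genes 0 were higher and 3 lower (9.98 to 10.59 in AZN and 10.36 to 10.62 in ABH), with all 9 means below those of ABH. Of 6 endothelial genes 1 was called lower, of 4 neuron and Schwann cell genes 1 was called higher, which was Sox10 (0.34 ± 0.06), and of 6 macrophage genes 0 were called. By genotype the median difference was 0.73 for the muscle list, 0.27 for the osteoblast list and -0.26 for the dental epithelial list, with 0 genes called in each. For the other marker lists it lay between -0.07 and 0.03. The part of these tissues in the histone differences was not tested. Without the pools AZN_MolairesMutant3 and ABH_14A the same 8 members were called between series and 0 between genotypes. This is no such test, since the remaining pools still differ in these lists.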

How the data were processed

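RNA of 16 pools of molar germs (8 Rsk2-/Y, 8 WT), 150 ng each per the labels, was amplified with a kit whose priming does not need a poly(A) tail and hybridized to 1 array per pool. The deposited log2 values were made by the authors with RMA in Affymetrix Expression Console 1.3.1.187, which corrects background, quantile-normalizes and summarises probes into probe sets. No depth exists for arrays. Groups were taken from the labels. Nothing states that pools of a group came from separate litters, so p-values measure the spread between pools.

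Symbols came from the platform annotation, and 12146 rows without one were left out. Rows above a log2 signal of 5 in at least 1 sample were tested with limma 3.58.1 in R 4.3.3 (two-sided; Benjamini-Hochberg over 19979 rows; called at adjusted p below 0.1 and a fold beyond 1.2). The genotype fit had no covariate, the series fit had genotype as a block, and another fit held their interaction. The script was tested on simulated data. The members and lists were chosen with earlier results of these data known. Named members were, by rule, the highest and lowest row of each class in each comparison, up to 8 called rows, the 3 rows of largest spread and the members that are not replication-dependent; of each list, the 2 genes with the largest difference in each comparison; and the 5 rows most correlated with the members' mean. H1f0 was not analysed here. Windows with motif matches came from RefSeq (GRCm38.p6). Alternatives covered filters, tests, weights, scaling, blocks, single series or genotypes, and each pool left out.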

Additional observations from a re-analysis of the deposited data

Results flagged for a closer look

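In groups of 8 pools, a pool was singled out when its gap to the next pool was a large part of the group's range. Of 96 such groups examined (24 measures in 4 groupings), 5 were picked out, and chance alone picks about 1 in 20. In 4 of the 5 the pool was Rsk2-/Y pool AZN_MolairesMutant3, always the lowest: a shared H3 row of 12 symbols was 13.18, where the next Rsk2-/Y pool had 13.35 and the next AZN pool 13.31, a further shared H3 row was 13.15, next to 13.33 in Rsk2-/Y, and the mean of the tested H3 rows was 11.90, next to 12.08 in AZN. These rows read the same transcripts and are not separate observations, and the same pool had the highest skeletal muscle list mean of all pools, 10.17. In the fifth, H1f7 was 6.56 in Rsk2-/Y pool ABH_16A, next to 6.79.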

How the results depend on the processing

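Between genotypes 0 members were called higher and 0 lower under all 30 alternatives. These included series as a block, ABH alone, AZN alone and each pool left out. Over all rows at most 3 were called in any of them, so a count of 0 is not particular to the members. The member median ran between -0.04 and -0.00. With the AZN numbers shared by both genotypes as a replicate block the counts were 0 and 0. The deviations of same-numbered pools correlated at -0.05 and 0.01, which shows no sign of pairing but cannot exclude it. Between series 5 members were called higher and 3 to 4 lower with any pool left out, and the 8 calls were kept each time; without AZN_MolairesWT1, and with array weights, H2bc8 was added (-0.29 and -0.26). The median of the members, -0.06 to -0.04 with any pool left out, was 0.027 over rows with 1 symbol only, since the shared rows are mostly lower. In WT alone 5 members were called lower. H4c3 was not called in WT alone (0.52, adjusted p = 0.12), nor H1f1 (0.71, adjusted p = 0.17) and H4c8 (0.27, adjusted p = 0.13) in Rsk2-/Y alone. No called difference changed sign in any alternative.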
